A study of Rattus norvegicus with 9 samples.

Results

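Livers of 3 rats given CCl4 together with rottlerin (CCl4+Rot, replicates 4, 5 and 6) were compared with livers of 3 rats given vehicle (replicates 3, 4 and 5), which received neither agent, so this comparison describes the injury programme that was present in rats treated with both compounds. CCl4 is a hepatotoxin used to induce liver fibrosis, and rottlerin is an activator of BK channels, the large-conductance, calcium-activated potassium channels. The 6 arrays were chosen by their labels alone out of 9 in the series, the other 3 being livers of rats given CCl4 without rottlerin (CCl4 replicates 1, 2 and 3). Each array read total RNA of frozen liver from 1 rat, on the Affymetrix rat expression platform, where groups of short oligonucleotides (probe sets) read a transcript. The study's methods describe male Sprague-Dawley rats in which rottlerin was started after the CCl4 injections had begun. No group received rottlerin without CCl4, so the contributions of the 2 agents to a difference from vehicle cannot be told apart in this comparison. The labels do not give the animals' age.

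Repeated CCl4 injures hepatocytes around the central veins, where cytochromes P450 convert it to a reactive radical. The injury activates hepatic stellate cells (HSCs), vitamin A storing pericytes that turn into collagen-producing myofibroblasts under TGF-beta and PDGF, and macrophages recruited from blood gather along the forming scars. Scar tissue is made mainly of fibrillar collagens, which are secreted as procollagens, folded with the help of chaperones, trimmed, and cross-linked outside the cell.

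The table held 31099 probe sets, of which 57 controls were left out and 31042 were tested. A level is given below as a log2 signal, and a difference as a log2 change, CCl4+Rot minus vehicle. Between 15550 and 16750 probe sets were called present (detected over mismatch background) in vehicle rats and between 16337 and 16612 in CCl4+Rot rats. The first principal component of the probe sets held 52.1% of the variance and separated the groups, with scores of -12.4, -30.4 and -26.6 in vehicle replicates 3, 4 and 5 and of 17.9, 17.6 and 33.9 in CCl4+Rot replicates 4, 5 and 6. Vehicle replicate 3 was thus the vehicle liver nearest to the treated group. The liver label was borne out by Alb, Ttr, Apoa1 and Cps1, hepatocyte genes that read between 14.32 and 15.16 on all 6 arrays, while Krt19 and Epcam (bile duct cells), Stab2 and Lyve1 (sinusoidal endothelium) and Clec4f and Cd163 (Kupffer cells) were called present on all 6. Tpsab1 (mast cells), Krt7 (bile duct cells) and Cd3d (T cells) were called present on none.

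The term called is used for an adjusted p below 0.05 (limma, Benjamini-Hochberg over all 31042) together with a change of at least 1.5-fold. Of 31042 probe sets, 597 (1.92%) were called higher and 123 (0.396%) lower in CCl4+Rot than in vehicle rats, 720 in all. The signals of the 3 CCl4+Rot livers and the 3 vehicle livers did not overlap for any of the 720. These were picked by p from the same signals, so the separation adds no support to the calls. The share of all probe sets without overlap was not counted. Most of the calls, 593, had transcripts called present in both groups, while 74 were called present on no vehicle array, 7 on no CCl4+Rot array and 46 on none of the 6. Each gene was read by its brightest probe set that names it alone. On this scale 433 of 14377 genes (3.01%) were higher and 72 (0.501%) lower, with a median log2 change over all genes of 0.03. These shares are the background for the counts of each list below. The lists were written with earlier results of these data known, and some genes are in more than 1 list. A list share above the background is therefore a description and not a test of enrichment. When each array was centred on the median of all its probe sets, the median change of all probe sets was -0.10, compared with 0.01 before centring, and the split became 398 higher and 220 lower.

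The number of calls rested on how the spread between livers was estimated and on single animals. With 1 prior variance shared by all probe sets in place of a robust one that follows the signal, 1 probe set was called, for Lhfpl3, named here because it was the only one (at least 6.42-fold, called present on 2 CCl4+Rot arrays and no vehicle array). The number at an unadjusted p below 0.05 was 3883 in that fit and 4749 in the main one. With 1 array left out at a time, the total was 865 without vehicle replicate 3, 204 without vehicle replicate 4, 287 without vehicle replicate 5, and 305, 365 and 174 without CCl4+Rot replicates 4, 5 and 6. No probe set called in the main fit was called in the opposite direction in any refit. In all 6 of these fits 143 probe sets were called (126 higher and 17 lower), which gave 100 genes, and such a gene is described below as held with any array left out. No single gene can pass an exact permutation test here, because the smallest two-sided p for 3 against 3 is 0.1.

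**Figure D1:**
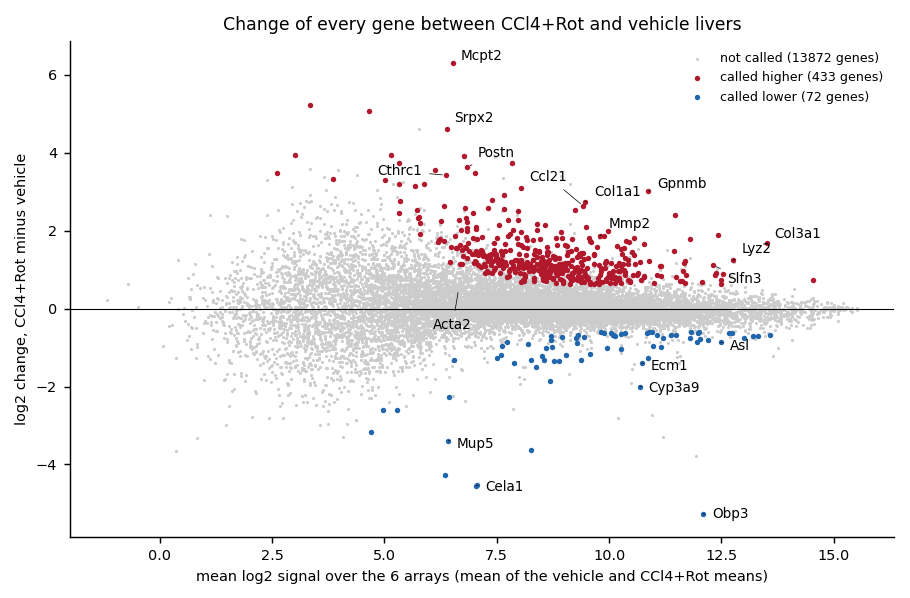
Log2 change (CCl4+Rot minus vehicle, vertical axis) against the mean log2 signal over the 6 arrays (horizontal axis), 1 point per gene, with called genes coloured by direction. The called genes are mostly above the line of no change (433 higher, 72 lower), from Mcpt2 at 6.29 to Obp3 at -5.27.

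Collagen genes were among those most often called higher in the rottlerin-treated injured livers. Of the 24 collagen chains measured, 11 were called higher and none lower, with a median log2 change of 0.79 (0.03 over all genes), and 7 of the 11 held with any array left out. The count was 12 without vehicle replicate 3 and 7 without vehicle replicate 5 or CCl4+Rot replicate 6. In whole liver, more cells of a type and more RNA per cell cannot be told apart, which applies to every gene below. Col1a1, the alpha 1 chain of type I collagen, read 8.81, 7.77 and 7.69 in the vehicle rats and 10.46, 10.90 and 11.14 in the CCl4+Rot rats. The lowest treated liver was well above the highest vehicle liver, and the log2 change was 2.74 (95% CI 2.06 to 3.42, 6.68-fold, adjusted p = 0.00419, limma). Its partner chain Col1a2 read 11.20, 9.69 and 9.94 against 12.40, 12.66 and 12.94, a log2 change of 2.39 with an adjusted p of 0.0387. The call for Col1a2 was kept only without vehicle replicate 3, the vehicle liver with the highest signal for it, and was lost with any other array left out. Col3a1, the type III fibrillar chain and the brightest of those named, read 13.09, 12.34 and 12.57 against 14.20, 14.41 and 14.43 (log2 change 1.68, adjusted p = 0.00192). Col6a2, a chain of the beaded-filament collagen VI, read 7.4, 7.41 and 7.44 against 9.07, 9.34 and 9.12, with very little spread inside either group (1.76, adjusted p = 0.00087). Col5a2 (1.73), Col6a3 (1.54) and the basement membrane chain Col4a5 (0.95) rose as well, and all of these except Col1a2 held with any array left out.

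The promoter of Col1a2 is shown because its gene encodes the bright type I chain and because the CCAAT motif, the binding sequence of the factor NF-Y, has been studied in it. The RefSeq window (250 bases before to 50 after the annotated start, GRCr8, chr4:33518307-33518606, plus strand) holds 1 match, on the minus strand, shown in capitals with its first base at position -221 from the start.
Col1a2: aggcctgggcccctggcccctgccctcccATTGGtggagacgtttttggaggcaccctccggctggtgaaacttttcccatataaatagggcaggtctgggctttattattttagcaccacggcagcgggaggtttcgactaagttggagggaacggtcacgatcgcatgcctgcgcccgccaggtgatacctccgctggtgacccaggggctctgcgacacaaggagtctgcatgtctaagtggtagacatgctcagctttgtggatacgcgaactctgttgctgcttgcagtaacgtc
Of the 24 measured collagen genes, 18 had a promoter in the RefSeq table and 6 of these (33.3%) held CCAAT on either strand. The share was 37.5% of all 33469 promoters and 39.6% of 27457 genes. Among the 11 chains called higher, 7 had a promoter and 2 of them, Col1a2 and Col4a1, held the motif.

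Other matrix components were also called. Of 40 matricellular proteins, glycoproteins and proteoglycans, 16 were called higher and 1 lower (median log2 change 0.98), with 15 higher without vehicle replicate 3 and 7 without CCl4+Rot replicate 6. The higher calls include Fbln1 and Lama5, which were called present on none of the 6 arrays. Postn, periostin, a matricellular protein of scar and wound tissue, read 5.65, 4.83 and 4.61 in vehicle rats, where it was called present on no array, and 8.36, 9.06 and 8.51 in CCl4+Rot rats, where it was called present on all 3. The rise was at least 12.3-fold (adjusted p = 0.00113, limma). Such bounds compare the mean of the higher group with a raised mean of the other group. In that mean, a signal below the dimmest one with a present call on the same array is raised to it. Where no signal lies below it, as for Postn and Cthrc1, the bound equals the plain fold. The bounds are therefore estimates that carry the error of the signals, and not guaranteed minimum folds. Cthrc1, a secreted protein of collagen-producing fibroblasts, behaved likewise, at 4.93, 4.01 and 5.05 against 8.07, 8.01 and 8.15 (at least 10.7-fold, adjusted p = 0.0016). Mgp, a matrix protein that inhibits calcification, rose from 11.65, 11.26 and 11.53 to 13.07, 13.51 and 13.48 (log2 change 1.88, adjusted p = 0.000627). Aspn (2.02), Efemp2 (1.65) and Fbn1, the main microfibril protein (1.61), rose too. Ecm1, a secreted glycoprotein of the healthy liver, went the other way, at 11.36, 11.45 and 11.48 in vehicle rats and 9.81, 10.24 and 10.04 in CCl4+Rot rats (-1.40, adjusted p = 0.00113). These genes held with any array left out.

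**Figure D2:**
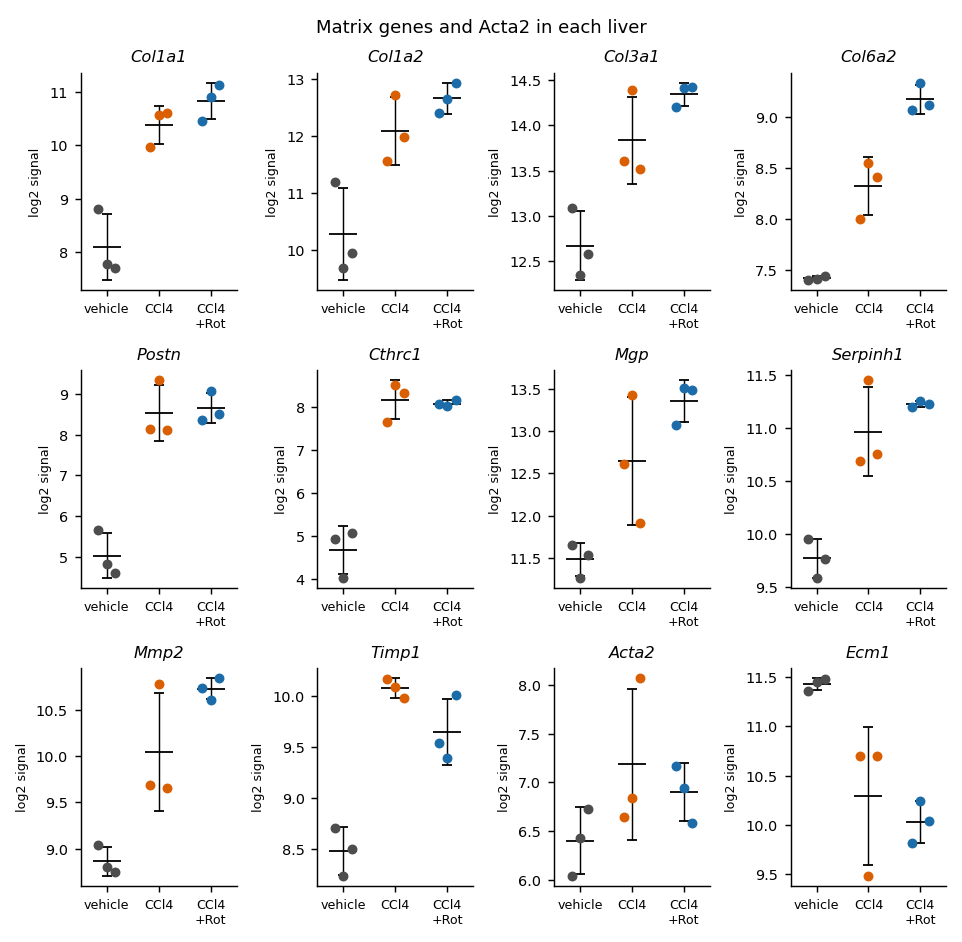
Log2 signal of 12 matrix genes in each liver (points) for vehicle, CCl4 and CCl4+Rot rats, with the mean and SD (bars, n = 3 per group). The CCl4+Rot livers lie above the vehicle livers for 10 of the genes, below them for Ecm1, and overlap with them for Acta2.

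Of the genes that fold, trim and cross-link collagen or build elastic fibres, 10 of 26 were called higher and none lower, with a median log2 change of 1.16. The count was 5 without vehicle replicate 4 or CCl4+Rot replicate 6. Serpinh1, the collagen chaperone HSP47, read 9.96, 9.59 and 9.77 against 11.20, 11.26 and 11.23 (log2 change 1.46, adjusted p = 0.000862). Pcolce, which enhances the removal of the procollagen C-propeptide, changed by 1.32 and Plod2, a lysyl hydroxylase, by 1.44, and all 3 held with any array left out. Eln, elastin, was called present only in CCl4+Rot rats (at least 5.79-fold, adjusted p = 0.0339), and its call was kept only without vehicle replicate 3. Lox, a lysyl oxidase that cross-links collagen, was not called. It read 9.13, 9.69 and 6.23 in vehicle rats and 9.72, 9.83 and 9.90 in CCl4+Rot rats, so that vehicle replicate 5 lay far below the other 5 livers.

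Among 33 matrix proteases and inhibitors, 6 were called higher and none lower (median 0.52), with 2 higher without vehicle replicate 5 or CCl4+Rot replicate 4 or 6. Mmp2, gelatinase A, read 9.04, 8.80 and 8.75 in vehicle rats and 10.73, 10.61 and 10.84 in CCl4+Rot rats (log2 change 1.87, adjusted p = 0.000429). A dimmer probe set for Mmp2, called present on all 6 arrays, read -0.40 and was not called. Timp2, an inhibitor of these proteases, rose by 1.30 (adjusted p = 0.00229). Timp1, the inhibitor most often linked to liver scarring, read 8.71, 8.24 and 8.50 against 9.54, 9.39 and 10.01 (1.16, adjusted p = 0.0161). Its call was lost without vehicle replicate 4 or 5 or CCl4+Rot replicate 4 or 6. Mmp12, the macrophage elastase, spread widely among treated livers, at 9.85, 7.66 and 9.32, with vehicle livers between 6.21 and 6.60 (2.56, adjusted p = 0.0395), and its call was kept only without CCl4+Rot replicate 5. The collagenase gene Mmp13 read between 3.94 and 4.85 on the 6 arrays and was not called (0.37, 95% CI -0.95 to 1.70).

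Among genes of stellate cells and myofibroblasts, the smooth muscle actin gene was not called. Of 35 measured, 11 were called higher and 1 (Ecm1) lower, with a median log2 change of 0.50, 10 higher without vehicle replicate 3 and 4 without CCl4+Rot replicate 6. Cygb, the stellate cell globin, read 8.05, 7.91 and 8.42 in vehicle rats and 9.23, 9.45 and 9.70 in CCl4+Rot rats (1.33, adjusted p = 0.00735). Myh10, a non-muscle myosin heavy chain, rose by 2.28 (adjusted p = 0.00454) and Tpm4, a tropomyosin, by 0.92 (adjusted p = 0.00425), and these 3 held with any array left out. Pdgfrb, the PDGF receptor of activated HSCs, read 7.44, 6.19 and 7.49 against 8.56, 8.82 and 9.17 (1.81, adjusted p = 0.0254, called in 3 of the 6 fits with an array left out). Des, desmin, was called at 0.80 (adjusted p = 0.0497) and in none of those 6 fits. Lrat, the enzyme that stores retinol as ester in quiescent HSCs, changed by 0.59 (95% CI 0.28 to 0.90, adjusted p = 0.0638). Acta2, alpha smooth muscle actin, the usual marker of myofibroblasts, read 6.04, 6.43 and 6.73 in vehicle rats and 7.17, 6.94 and 6.58 in CCl4+Rot rats. The groups overlapped, and the log2 change was 0.50 (95% CI -0.14 to 1.13, adjusted p = 0.456). Nox4, an NADPH oxidase, was lower, at 8.80, 9.67 and 8.90 against 7.84, 7.64 and 7.37 (-1.51, adjusted p = 0.0148), and lost its call without CCl4+Rot replicate 6.

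In the TGF-beta and PDGF list, 7 of 35 genes were called higher and none lower (median 0.36), with 2 higher without CCl4+Rot replicate 6. The latent TGF-beta binding proteins tether the inactive cytokine in the matrix, and Ltbp1 read 9.00, 8.54 and 8.41 in vehicle rats against 10.07, 10.40 and 10.87 in CCl4+Rot rats (1.80, adjusted p = 0.0047). Ltbp2 was called present only in CCl4+Rot rats and rose at least 3.60-fold (adjusted p = 0.00527), and both held with any array left out. Tgfb3, a TGF-beta ligand, rose by 1.64 (adjusted p = 0.0377). The target genes Pmepa1 and Skil, which feed back on SMAD signalling, rose by 1.07 (adjusted p = 0.0197) and 0.86 (adjusted p = 0.0448). The calls for Tgfb3 and Skil were kept only without vehicle replicate 3, and that for Pmepa1 in 2 of the 6 fits. Smad3, which carries the signal to the nucleus, read 8.75, 8.95 and 8.35 against 8.96, 8.39 and 8.66 (-0.01, 95% CI -0.46 to 0.43), and the receptor gene Tgfbr1 changed by 0.39 (95% CI 0.13 to 0.65, adjusted p = 0.125). Tgfb1 and Tgfbr2 were called present on none of the 6 arrays by the probe sets used here. Ltbp4 (1.06) and the activin subunit gene Inhba (0.63) were the other calls. An mRNA level does not report the phosphorylation of SMAD3.

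**Figure D3:**
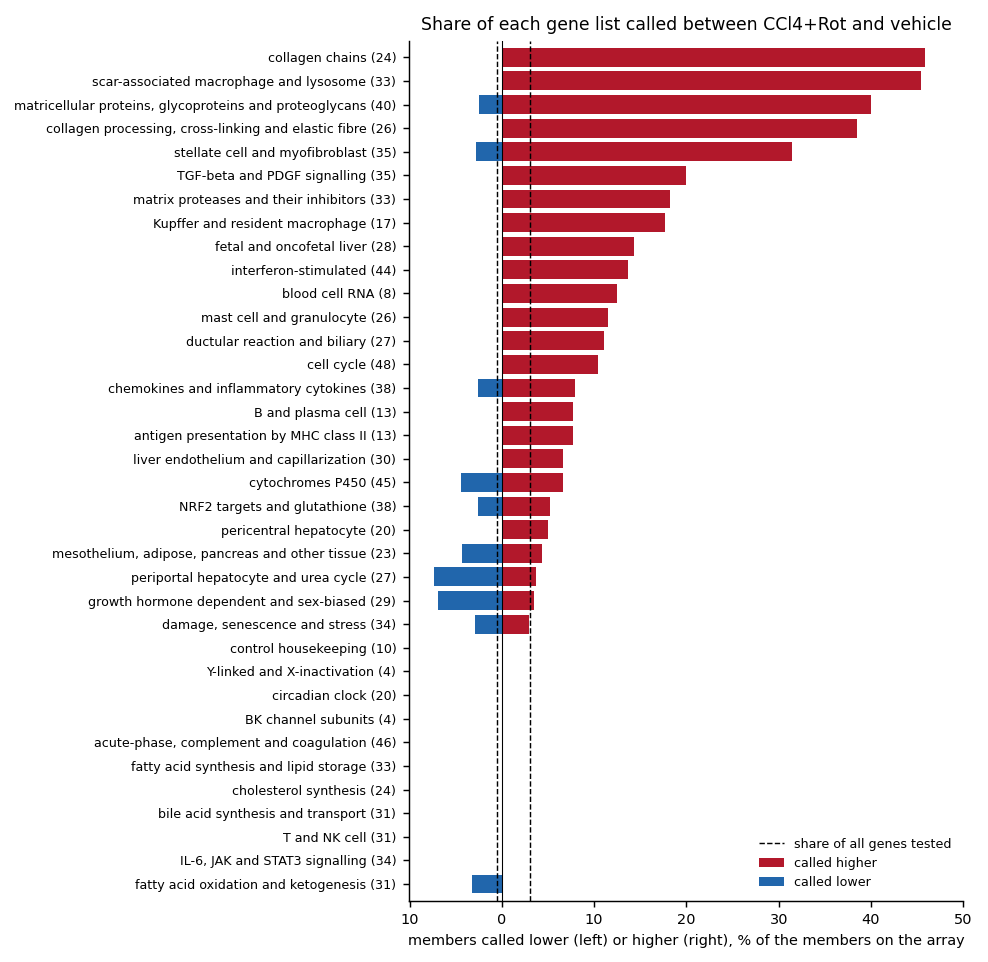
Percent of the measured genes of each list that were called higher or lower in CCl4+Rot than in vehicle rats, with dashed lines at the share over all genes (3.01% higher, 0.501% lower). Matrix, collagen, scar-associated macrophage and stellate cell lists lie far to the right of the dashed line, and lists of IL-6 signalling, lipid synthesis, bile acids and acute-phase proteins lie at 0 in both directions. The lists were written with earlier results of these data known and share some genes, so the distances from the lines are not tests.

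The largest rise with detection on all 3 arrays of the higher group was that of a mast cell protease. The probe set labelled Mcpt2, a chymase of rat mucosal mast cells that RefSeq lists under the same gene ID as Mcpt1, read 2.60, 4.18 and 3.36 in vehicle rats, with no array called present. It read 9.60, 10.14 and 9.27 in CCl4+Rot rats, all called present, a rise of at least 63.9-fold (adjusted p = 0.000429). Chymase genes of the rat form a cluster of similar sequence, so signals of neighbours cannot be separated with certainty. A separate probe set labelled Mcpt1 in the deposited annotation, which RefSeq names Vch, read 5.13, 5.41 and 5.75 against 4.50, 5.94 and 4.92 and was not called (-0.31, adjusted p = 0.838). Cpa3, the carboxypeptidase of mast cell granules, read 7.15, 7.42 and 7.59 against 8.91, 9.76 and 9.50 (log2 change 2.01, adjusted p = 0.00359). Both held with any array left out. Cma1, another chymase, was called present on 2 CCl4+Rot arrays and on no vehicle array (at least 15.3-fold, adjusted p = 0.00817), and lost its call without CCl4+Rot replicate 6. Ms4a2, a chain of the mast cell IgE receptor, read 3.85, 4.27 and 5.43 against 6.39, 7.13 and 6.20 and missed the threshold (2.06, adjusted p = 0.0794), and the tryptase gene Tpsab1 was called present on no array. Over the whole mast cell and granulocyte list, 3 of 26 genes were called higher and none lower, 12 were called present in neither group, and the mean log2 signal of the list ran from 4.65 to 5.13 in vehicle livers and from 5.98 to 6.58 in CCl4+Rot livers.

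Among genes of scar-associated macrophages and lysosomes, 15 of 33 measured were called higher and none lower, with a median log2 change of 1.04, and the mean log2 signal of the list was 8.52 to 9.08 in vehicle and 9.89 to 10.15 in CCl4+Rot livers. The count was 19, 4 and 6 without vehicle replicates 3, 4 and 5, and 5, 8 and 4 without CCl4+Rot replicates 4, 5 and 6. The calls include Trem2 and Itgam, which were called present on none of the 6 arrays, and the median over detected members was 0.88. Lyz2, macrophage lysozyme, read 12.12, 12.11 and 12.17 in vehicle rats and 13.42, 13.24 and 13.46 in CCl4+Rot rats (1.24, adjusted p = 0.00051). Cd63, a lysosomal tetraspanin, rose by 1.79 (adjusted p = 0.00113) and Lgals3, galectin-3, by 1.66 (adjusted p = 0.00317), and all 3 held with any array left out. Gpnmb, a glycoprotein of lipid-laden macrophages, read 10.36, 9.32 and 8.44 against 12.54, 11.96 and 12.66 (3.01, adjusted p = 0.0438). Spp1, osteopontin, which injured bile duct cells also make, was called present only in CCl4+Rot rats, at 10.46, 8.11 and 8.74 (at least 7.5-fold, adjusted p = 0.0354). Lilrb4, an inhibitory receptor of myeloid cells, was called present only there too (at least 13.4-fold, adjusted p = 0.0243). The calls of Gpnmb, Spp1 and Lilrb4 were each made in 2 of the 6 fits with an array left out.

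The markers of resident Kupffer cells behaved differently from one another. Clec4f, the Kupffer cell lectin, read 12.85, 12.50 and 12.71 against 12.88, 12.82 and 12.69 (0.11, 95% CI -0.13 to 0.35), and the haemoglobin scavenger receptor Cd163 changed by 0.08 (95% CI -0.26 to 0.42). Of 17 Kupffer and resident macrophage genes 3 were called higher, namely Folr2 (1.12), Csf1r (0.84) and Cd68 (0.86), and none lower. The count was 5 without vehicle replicate 3, 1 without CCl4+Rot replicate 5 and 0 in the other 4 fits. No gene of 31 for T and NK cells was called, with 7 at an unadjusted p below 0.05 and a median log2 change of 0.35. The shares over all genes were 3.01% called higher and 0.501% lower. Cd3g, a chain of the T cell receptor complex, read 6.89, 6.36 and 6.94 against 7.75, 7.19 and 7.68 (0.81, adjusted p = 0.149). In the B and plasma cell list, 1 of 13 genes was called, Igj, the joining chain of secreted antibodies (now Jchain), which rose by 0.99 (adjusted p = 0.0182). Its call was made in 2 of the 6 fits. Of 8 blood cell genes 1 was called, the platelet factor gene Pf4 (at least 2.52-fold), and the erythroid gene Alas2 read -0.46 (adjusted p = 0.30).

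The smallest adjusted p among the genes belonged to a chemokine. Ccl21, which draws T cells and dendritic cells to lymphatic vessels and lymphoid tissue, read 8.26, 8.11 and 7.95 in vehicle rats and 10.94, 10.56 and 10.71 in CCl4+Rot rats (log2 change 2.63, 95% CI 2.31 to 2.95, 6.19-fold, adjusted p = 0.000116). Cxcl16, a macrophage and endothelial chemokine, rose by 1.25 (adjusted p = 0.0254, called in 2 of the 6 fits). Cxcl9, a chemokine induced by interferon-gamma, was lower, at 9.81, 10.14 and 10.13 against 8.56, 8.38 and 9.19 (-1.32, adjusted p = 0.0136), and lost its call without vehicle replicate 4 or 5 or CCl4+Rot replicate 4. Over 38 chemokines and inflammatory cytokines 3 were called higher and 1 lower (median 0.10), the remaining call being Cx3cl1, which was called present on no array and gets no fold. Ccl2, the monocyte chemoattractant that HSCs also secrete, was called present on 1 CCl4+Rot array alone and was not called. Cxcl2 and Il6 were called present on no array of these 6, and Ifng on 1 CCl4+Rot array.

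In the endothelial list, 2 of 30 genes were called higher and none lower (median 0.08). Ednrb, the type B endothelin receptor, which sits on sinusoidal endothelium and on HSCs, read 8.79, 8.22 and 8.38 against 10.67, 10.19 and 10.74 (2.08, adjusted p = 0.0012) and held with any array left out. Esam, an adhesion molecule of vessels, was called present on 2 CCl4+Rot arrays and no vehicle array (at least 1.71-fold), a call kept only without vehicle replicate 3. Stab2 and Lyve1, sinusoidal scavenger and hyaluronan receptors, changed by 0.32 and 0.06 and were not called. Of 27 ductular and biliary genes, 3 were called higher, Sox4, Fgfr2 and Spp1, all of which other liver cells can express. The call for Fgfr2 (0.68) came from its brightest probe set, and another, with no present call on these arrays, read -0.80. Krt19, the keratin of bile duct cells, read 7.25, 6.72 and 7.10 against 7.05, 6.97 and 7.09 (0.01, 95% CI -0.48 to 0.51), and Epcam changed by 0.18. The call for Sox4 (1.60) came from its brightest probe set, and 3 of its other 6 probe sets read in the opposite direction without being called.

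**Figure D4:**
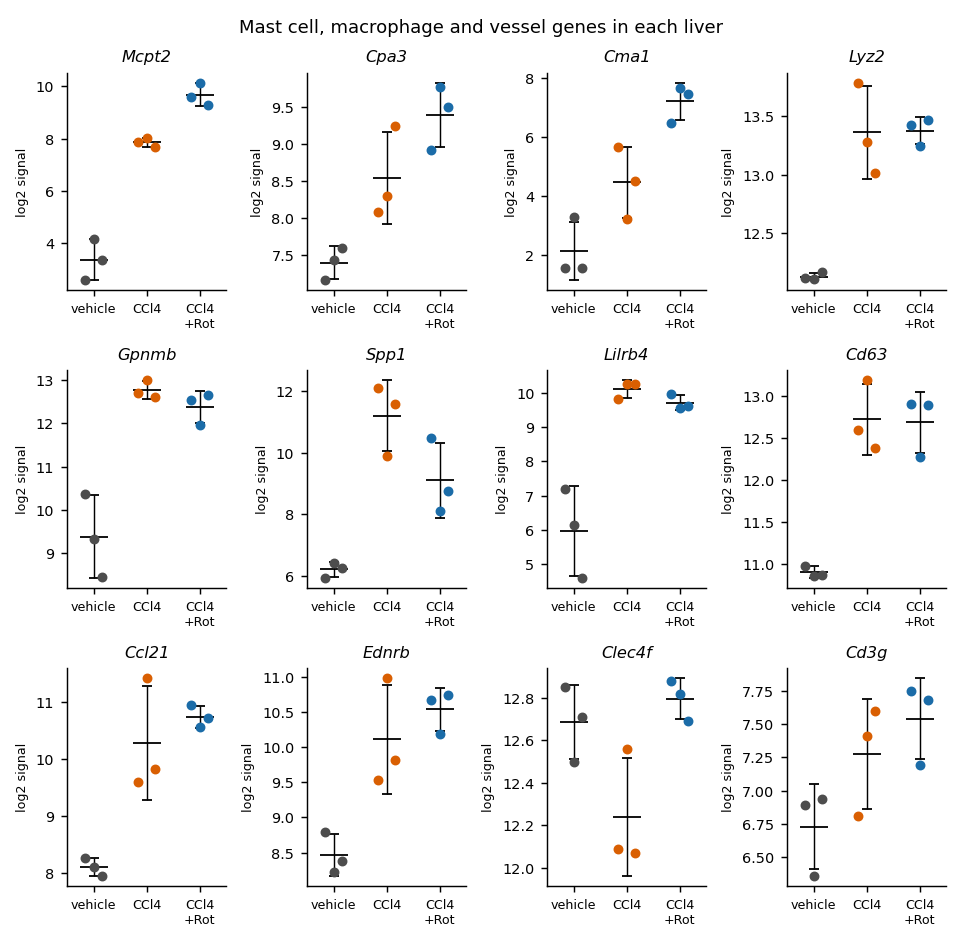
Log2 signal of 12 genes of mast cells, macrophages, endothelium and lymphocytes in each liver (points) for vehicle, CCl4 and CCl4+Rot rats, with the mean and SD (bars, n = 3 per group). Mcpt2 rises from 2.60 to 4.18 in vehicle livers to 9.27 to 10.14 in CCl4+Rot livers, while Clec4f overlaps between these groups.

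Interferon-stimulated genes are switched on for antiviral defence. Of 44 measured, 6 were called higher than in vehicle rats and none lower (median 0.38), with 8 higher without vehicle replicate 3, 3 without vehicle replicate 4, 1 without vehicle replicate 5 or CCl4+Rot replicate 4 or 5, and 0 without CCl4+Rot replicate 6. The Slfn3 probe set (a Schlafen family gene that RefSeq names Slfn4 under the same gene ID) read 11.89, 12.07 and 11.31 in vehicle rats and 12.80, 13.09 and 12.69 in CCl4+Rot rats (1.11, adjusted p = 0.0179). Schlafen genes are similar in sequence, so the member read is uncertain, and a second Slfn3 probe set, with no present call on these 6 arrays, read -0.70 and was not called. Mx1, an antiviral dynamin-like GTPase, read 9.06, 9.44 and 8.46 against 10.33, 10.70 and 10.04 (1.37, adjusted p = 0.024). Slfn2 (1.20), Cmpk2, a mitochondrial nucleotide kinase (1.06), Zbp1, a sensor of nucleic acids (0.91), and Ifit2, which blocks translation of viral RNA (0.77), were the other calls, and each of the 6 calls was made in 1 to 3 of the 6 fits with an array left out. Irf7, the transcription factor that amplifies the response, changed by 0.77 with an adjusted p of 0.0981.

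The promoter of Cmpk2 is shown because, among the called interferon genes, its window alone held the core letters of the element bound by interferon-activated factors. These were searched as GAAANNGAA on both strands, where N is any base. The RefSeq window (GRCr8, chr6:48802600-48802899, plus strand) holds the match on the minus strand, in capitals, with its first base at position -91 from the annotated start.
Cmpk2: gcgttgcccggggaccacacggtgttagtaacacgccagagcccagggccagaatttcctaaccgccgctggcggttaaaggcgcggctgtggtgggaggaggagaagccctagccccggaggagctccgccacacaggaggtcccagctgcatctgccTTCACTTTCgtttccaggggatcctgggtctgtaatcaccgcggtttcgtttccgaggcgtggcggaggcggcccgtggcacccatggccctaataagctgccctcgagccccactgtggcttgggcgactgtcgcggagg
Of the 44 measured interferon genes, 33 had a promoter in the table and 22 of these (66.7%) held the letters, while the share was 9.71% of all 33469 promoters and 10.3% of 27457 genes. Of the 6 called genes, 4 had a promoter in the table and 1 held a match.

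Because the CCl4 livers share the agent CCl4 with these rats, the levels of both injured groups were set side by side, and the difference between them was tested with limma over all 9 arrays. Both groups were compared with the same vehicle arrays, so their distances from vehicle are not independent. Over 31042 probe sets, 1 was called between CCl4+Rot and CCl4 rats (0.00322%), which was the brighter Slfn3 probe set, and 2259 had an unadjusted p below 0.05. Without CCl4 replicate 3, on which 12714 probe sets were called present compared with 15550 to 16849 on the other arrays, 11 were called, and 4 and 2 were called without vehicle replicate 4 and CCl4 replicate 2. Of the 505 genes called against vehicle, 102 had an unadjusted p below 0.05 between the injured groups, and 1 was called (3 without CCl4 replicate 3). The 505 were picked with the same CCl4+Rot arrays, which can raise such a count by itself. The share over all genes was not counted, so the 102 are not read as an effect of rottlerin. Slfn3 read 9.99, 10.21 and 10.66 in CCl4 rats, below all vehicle and CCl4+Rot livers, and the log2 difference between the injured groups was 2.58 (95% CI 2.12 to 3.03, adjusted p = 0.000662). Mx1 read 6.97, 7.88 and 8.93 in CCl4 rats, with a difference of 2.42 (95% CI 1.5 to 3.35, adjusted p = 0.137) that was called without CCl4 replicate 3 (2.93, adjusted p = 0.0154). For Col1a1 the CCl4 livers read 9.97, 10.57 and 10.61, and CCl4+Rot minus CCl4 was 0.45 (95% CI -0.17 to 1.07, adjusted p = 0.716). Col3a1 differed by 0.51 (95% CI 0.02 to 1.01, adjusted p = 0.669). For Acta2 the difference was -0.28 (95% CI -1.19 to 0.62). For Timp1, which read 10.17, 10.09 and 9.98 in CCl4 rats, it was -0.43 (95% CI -0.83 to -0.04, adjusted p = 0.658). Spp1 read 12.11, 9.90 and 11.58 in CCl4 rats (-2.09, 95% CI -3.70 to -0.48, adjusted p = 0.618), and Mcpt2 read 7.86, 8.02 and 7.70 (1.82, 95% CI 0.93 to 2.70, adjusted p = 0.275). None of these matrix, macrophage and mast cell differences between the injured groups passed the threshold.

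**Figure D5:**
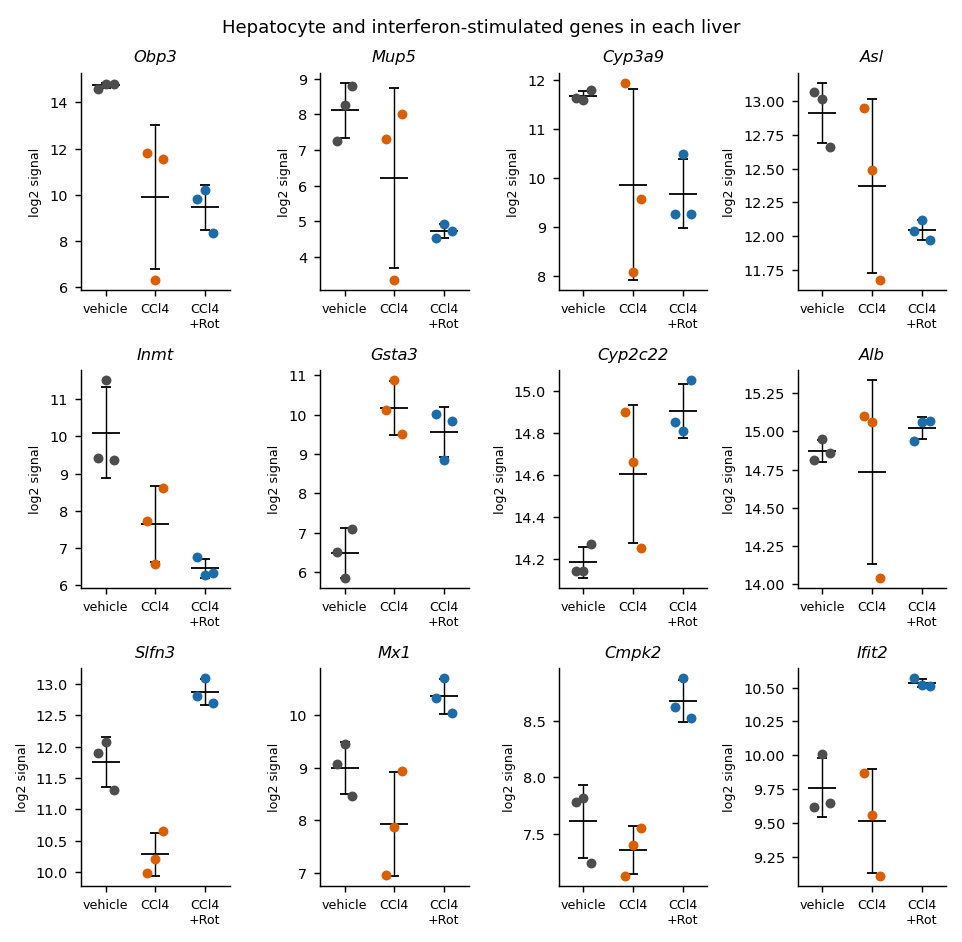
Log2 signal of 8 hepatocyte genes and 4 interferon-stimulated genes in each liver (points) for vehicle, CCl4 and CCl4+Rot rats, with the mean and SD (bars, n = 3 per group). Slfn3 is highest in the CCl4+Rot livers (12.69 to 13.09) and lowest in the CCl4 livers (9.99 to 10.66), and Obp3 is highest in the vehicle livers.

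Of 48 cell cycle genes measured, 5 were called higher and none lower, 25 had an unadjusted p below 0.05 and the median log2 change was 0.62. The count was 4 without vehicle replicate 3, 2 without vehicle replicate 5 or CCl4+Rot replicate 4, 1 without vehicle replicate 4 and 0 without CCl4+Rot replicate 5 or 6. Ccnb2, a mitotic cyclin, read 6.90, 6.37 and 6.77 in vehicle rats and 7.79, 8.14 and 8.29 in CCl4+Rot rats (1.39, adjusted p = 0.0157). Mki67, the proliferation marker Ki-67, changed by 1.55 (adjusted p = 0.036), a call made in none of the 6 fits with an array left out. Cdkn3, a phosphatase that acts on cyclin-dependent kinases, rose by 2.78 (adjusted p = 0.0458), with vehicle livers ranging from 4.57 to 6.91. Tk1, thymidine kinase (0.89), and Cdca3 (1.67) were the other calls, and Ccnb2, Cdkn3, Tk1 and Cdca3 were each called in 1 or 2 of the 6 fits.

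Most hepatocyte programmes were not called, with a few genes lower by large amounts. None was called among 31 bile acid, 24 cholesterol synthesis, 33 fatty acid synthesis and lipid storage, or 46 acute-phase, complement and coagulation genes (6, 3, 8 and 9 at an unadjusted p below 0.05), and medians lay between 0 and 0.30. At shares of 3.01% called higher and 0.501% lower over all genes, few or no calls would be made in lists of these sizes. Alb read 14.81, 14.95 and 14.86 against 14.94, 15.06 and 15.07 (0.15, adjusted p = 0.366). Cyp2e1, the P450 that activates CCl4, read 14.87, 15.04 and 14.94 against 15.04, 15.04 and 15.03 (0.09, 95% CI -0.07 to 0.24). Both genes read close to the highest signal of any probe set on these arrays, 15.43 to 15.62. Whether changes are understated at such levels was not tested. In the periportal and urea cycle list, 25 of 27 genes had a negative log2 change (median -0.28), of which 2 were called lower, and 1 gene, Aldh1b1, was called higher. Asl, argininosuccinate lyase of the urea cycle, read 13.07, 13.02 and 12.66 against 12.04, 12.12 and 11.97 (-0.87, adjusted p = 0.00668) and held with any array left out. Among 45 cytochromes P450, 3 were called higher and 2 lower (median -0.03). Cyp3a9 was lower, at 11.64, 11.59 and 11.80 against 9.27, 10.50 and 9.27 (-2.0, adjusted p = 0.0205, called in 2 of the 6 fits), whereas Cyp2c22 was slightly higher, at 14.14, 14.14 and 14.27 against 14.85, 14.81 and 15.05 (0.72, adjusted p = 0.00412).

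The largest fall was that of a secreted lipocalin. Obp3, a urinary and odorant-binding lipocalin whose hepatic level depends on growth hormone and androgen, read 14.58, 14.80 and 14.79 in vehicle rats, among the brightest genes of the liver, and 9.80, 10.20 and 8.36 in CCl4+Rot rats (log2 change -5.27, 95% CI -6.44 to -4.10, adjusted p = 0.00831). In CCl4 rats it read 11.82, 6.30 and 11.55. Mup5, a major urinary protein of the same family, read 7.26, 8.28 and 8.80 against 4.53, 4.92 and 4.73 (-3.39, adjusted p = 0.00412). The members of this family are close copies of each other, so the 2 probe sets may not be independent. Both held with any array left out. They were 2 of the 29 growth hormone dependent and sex-biased genes, where 2 were called lower, 1 higher (Cyp2c22), and the median was -0.05. Inmt, a methyltransferase of indoles, was called present on all vehicle arrays and on no CCl4+Rot array (at least 12.4-fold lower, adjusted p = 0.0261), and its call was lost without any of the CCl4+Rot arrays. Lrtm2, a leucine-rich repeat membrane protein (at least 23.1-fold lower), and LOC367746, a gene of the spindlin family (at least 19.1-fold lower), were likewise called present on no CCl4+Rot array. LOC367746 held with any array left out, and Lrtm2 lost its call without vehicle replicate 5 or CCl4+Rot replicate 6.

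The glutathione transferase gene Gsta3 rose the most in the list of NRF2 targets and glutathione genes, which answer to electrophiles and oxidants. It read 6.51, 5.85 and 7.10 in vehicle rats and 10.01, 8.84 and 9.85 in CCl4+Rot rats (log2 change 3.08, 95% CI 2.26 to 3.91, 8.46-fold, adjusted p = 0.00464), and held with any array left out. Of 38 genes in the list, 2 were called higher, the other being the retinal dehydrogenase Aldh1a1 (1.48, adjusted p = 0.0375, called in 2 of the 6 fits), and 1 lower, the carboxylesterase Ces1d (-0.71), with a median of 0.28. The fetal and oncofetal list had 4 of 28 genes called higher and none lower (median 0.60), namely S100a10 (1.10), Anxa2 (1.13), Anxa5 (0.85) and Sox4, while Afp, alpha-fetoprotein itself, read 0.18 and was not called. Among the remaining lists, Ifi30, a lysosomal reductase of antigen processing, was the call of 13 MHC class II genes (0.65, adjusted p = 0.00791), and carbonic anhydrase Car2 that of 20 pericentral genes (1.14, adjusted p = 0.0127). Acot12, an acyl-CoA thioesterase, was the call of 31 fatty acid oxidation genes (-0.67, adjusted p = 0.033). Of 34 genes of damage and stress, Ddit4 was called higher (0.71) and Herpud1 lower (-0.62). With an array left out, Ddit4 was called in none of the 6 fits, Herpud1 and Acot12 each in 1, Car2 in 4 and Ifi30 in all 6. Over all genes 3.01% were called higher and 0.501% lower, so 1 call in a list is not read as a result about that list. No gene was called among 10 control housekeeping and 20 clock genes (3 and 4 at an unadjusted p below 0.05 with limma).

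None of 34 genes of IL-6, JAK and STAT3 signalling was called by limma, with 5 at an unadjusted p below 0.05 and a median log2 change of 0.02. Without vehicle replicate 3, 2 were called lower. Over all genes 3.01% were called higher and 0.501% lower, so few or no calls would be made in a list of this size. Stat3, the transcription factor that IL-6 receptors activate through JAK kinases, read 8.55, 8.81 and 8.42 in vehicle rats and 8.33, 8.64 and 8.73 in CCl4+Rot rats (-0.03, 95% CI -0.40 to 0.34, adjusted p = 0.958), with 9.39, 9.10 and 9.39 in CCl4 rats. The difference between the injured groups was -0.73 (95% CI -1.12 to -0.34, adjusted p = 0.364, limma over 9 arrays). Jak2 read 7.25, 7.5 and 7.43 against 7.47, 7.75 and 8.16 (0.40, 95% CI -0.08 to 0.87). Kcnma1, the pore-forming subunit of the BK channel that rottlerin acts on, and the auxiliary subunit Kcnmb1 were called present on none of the 6 arrays. The other subunits measured, Kcnmb4 (-0.07) and Lrrc26 (-0.11), were not called. Protein phosphorylation and channel activity are outside what the arrays measure.

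Several further genes were among the largest rises with detection on all CCl4+Rot arrays. Srpx2, a secreted sushi-repeat protein, was called present on no vehicle array, where it read 5.76, 4.40 and 2.11, and read 8.56, 8.60 and 8.94 in CCl4+Rot rats (at least 20.4-fold, adjusted p = 0.0261, called in 2 of the 6 fits). Tnfrsf9, the lymphocyte costimulatory receptor 4-1BB, read 5.70, 5.64 and 4.51 against 8.97, 8.91 and 8.39 (at least 11.1-fold, adjusted p = 0.00163). Ptk7, a receptor-like pseudokinase of planar polarity signalling, rose at least 5.94-fold (adjusted p = 0.00601). Tnfrsf9 and Ptk7 held with any array left out. On the lower side, Mtmr7, a myotubularin-related phosphatase, read 9.76, 9.21 and 9.89 against 7.70, 8.13 and 7.41 (-1.87, adjusted p = 0.00495, held with any array left out), and Nudt10, a Nudix hydrolase, changed by -2.28 with a call kept only without CCl4+Rot replicate 4.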

How the data were processed

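Liver RNA of 9 rats was hybridised to Affymetrix rat arrays, 1 array per rat and 3 rats per group. For each probe set the deposited table gives log2 signals made by the authors, with calls of detection. The submitters' processing notes name MAS5 and affy without versions, and on every array the antilogs average 500 once 2% are trimmed at each end. The genome build of the deposited annotation is not given in the sources used here.

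The deposited log2 values were used as they are, with 57 control probe sets left out. The 3 vehicle and 3 CCl4+Rot arrays went into a limma fit (version 3.58.1, R 4.3.3, trend, robust, statmod 1.5.0), with no covariate. Adjustment was by Benjamini-Hochberg over 31042 probe sets, and a call needed an adjusted p below 0.05 and 1.5-fold. CCl4+Rot minus CCl4 used all 9 arrays. The fits were tested on simulated data. P-values measure the spread between rats, and 3 arrays per group limit the precision.

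Of 20317 probe sets with a single symbol, 19711 matched RefSeq by gene ID. Named genes were the 15 largest rises and 10 largest falls among those called and present on all arrays of the higher group, up to 6 genes of smallest p per list and its defining members, and genes the study names. Lhfpl3, Inhba, Irf7, Col4a1 and Cebpa lie outside this rule and were chosen after their values were seen. Comparisons, lists and settings were chosen with earlier results of these data known. Alternatives covered the variance prior, the arrays in the fit, normalization, filters, thresholds, the methods' t-test, array weights, the animal number as a block and each array left out.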

Additional observations from a re-analysis of the deposited data

How the results depend on the processing

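The count of 720 calls (597 higher and 123 lower) was sensitive to the estimate of spread. It was 1 (1 higher, 0 lower) with 1 prior variance, 241 (214 and 27) with all 9 arrays, 365 (303 and 62) without CCl4 replicate 3, and 461 (408 and 53) at 2-fold. The methods' t-test gave 2126 (1538 and 588) unadjusted with 1.5-fold and 0 (0 and 0) after Benjamini-Hochberg adjustment, where 4046 had an unadjusted p below 0.05. Centring on the median of all probe sets gave 220 lower calls. Leaving out 1 array at a time, the count ran from 174 to 865, with 142 to 716 higher and 22 to 149 lower. Chosen after seeing the data, 1 prior variance with only the probe sets called present on at least 3 of the 6 arrays gave 541 calls (470 and 71), of which 453 were among the 720. The other settings gave between 618 and 836 calls. No call changed direction in any refit, but settings that keep the group means, or leave out 1 array, could not reverse one.

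The count of 1 for CCl4+Rot minus CCl4 was 2 with quantile normalization and 1 to 11 with an array left out (11 without CCl4 replicate 3). With 1 prior variance it was also 1, but this was a different probe set, lower in CCl4+Rot rats. The cause of these moves was not tested.

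Vehicle and CCl4+Rot share only the replicate numbers 4 and 5, and deviations from the group means correlated at -0.0047 and -0.0125. Rats of unequal number correlated between -0.0404 and 0.045. Whether equal numbers pair the rats cannot be told from these few values. A random replicate block gave 801 calls (655 and 146), including all 720.

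Of 103 called genes picked by size of change, smallest p or the study's naming, not all described above, 26 have other probe sets, 34 in all. Of these, 10 were called the same way and 17 read the same direction uncalled. The rest reversed, with Fgfr2 at -0.80, Mmp2 at -0.40, Slfn3 at -0.70, Sox4 at -1.13, -0.30 and -1.38, and Wt1 at -0.27. Called genes described above but outside that set, such as Pdgfrb, Des, Inhba and Col4a1, were not included in this count. Of 324 list medians recomputed over 36 lists, 21 moved by more than the spread between livers. Transcripts called present on none of the 6 arrays made up 38.0% of probe sets, and signal over background limits what can be read from them.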

Other observations

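A few calls fell outside the programmes above. In the list for mesothelium, adipose tissue, pancreas and other tissue, Wt1, a transcription factor of mesothelial cells and HSCs, was called higher (1.39, adjusted p = 0.027, limma), a call kept only without vehicle replicate 3, and another of its probe sets read the other way. Cela1, a pancreatic elastase, was called lower, at 8.34, 9.70 and 9.90 in vehicle rats and 5.18, 4.56 and 4.56 in CCl4+Rot rats (at least 23.3-fold, adjusted p = 0.00113), although it was called present on 1 vehicle array alone. The mean log2 signal of that list was 5.06 to 5.48 in vehicle and 4.64 to 5.44 in CCl4+Rot livers. Of 23 genes measured in it, 17 were called present in neither group. The part of tissue carried along with the liver in the Cela1 difference was not tested.

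Cebpa, a transcription factor that maintains hepatocyte genes, read 12.37, 12.08 and 12.28 in vehicle rats, 12.62, 12.47 and 12.49 in CCl4+Rot rats and 11.45, 11.26 and 11.92 in CCl4 rats, and is named after its values were seen. Its change against vehicle was 0.28 (adjusted p = 0.203), and the difference between the injured groups was 0.98 (adjusted p = 0.098), called without CCl4 replicate 3 (1.17, adjusted p = 0.0154).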
